A study of Rattus norvegicus with 30 samples.

Results

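The 41 genes described here carry cells through the division cycle: they license and copy DNA, supply its building blocks, drive the passage from G1 into S phase, or act in G2 and mitosis. They were named as a list with earlier results of these data known. Each gene was read from the Affymetrix probe set annotated to it alone, taking the brightest by mean over all arrays where there were several. Of the 41 genes, 39 had a probe set of their own, since Cdc6 and Rrm2 had none, and 27 passed a filter that kept genes exceeding their own array's median signal on at least 5 of 30 arrays. The same steps left 10216 of 14217 genes over the whole array. By role, 27 of the 41 belong to G1/S, 13 to G2/M, and Ube2t, the ubiquitin-conjugating enzyme of the Fanconi anaemia DNA repair pathway, was placed in neither.

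The study measured RNA of primary rat hepatocytes on 30 arrays after exposure to methapyrilene hydrochloride, an antihistamine no longer sold because it is a liver carcinogen in rats. Its 6 groups of 5 wells were methapyrilene at 100 uM, methapyrilene at 3 uM and the DMSO vehicle, each harvested 24 h and 48 h after dosing. The cells of all groups were purchased frozen hepatocytes of male Sprague Dawley rats, dosed on day 3 of culture on collagen under Matrigel. The labels give the vehicle as 1% DMSO and describe the concentrated dosing solutions in the same way, so the share of DMSO in the medium is uncertain. They describe the 5 wells as independent cultures and name no animals, so the p-values below measure the spread between wells.

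In dividing cells the MCM helicase is loaded onto replication origins in G1, and cyclin-dependent kinases then fire the origins so that polymerases, their sliding clamp and its loader can copy the strands. The E2F transcription factors raise many of these replication genes at the G1/S boundary, whereas many G2/M genes are held by repressor complexes at CHR elements until late in the cycle. Adult hepatocytes are mostly quiescent but can re-enter the cycle after injury, and several of the proteins involved, such as the clamp PCNA, also act in DNA repair.

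The promoters of 6 members are shown as examples, because they belong to the genes with the smallest adjusted p among those that rose in the licensing, fork and nucleotide groups, the gene that fell at both times, a G2/M gene that rose at both times and the dim kinase gene Cdk1. They were picked after the values had been seen. Each is the 250 bases upstream of the start of the gene in RefSeq's GRCr8 annotation, written along the gene's own strand. Capitals mark matches, on either strand, to E2F letters (TTTNNCGC, where each N is C or G), to the CHR letters TTTGAA and to CCAAT.
Mcm6: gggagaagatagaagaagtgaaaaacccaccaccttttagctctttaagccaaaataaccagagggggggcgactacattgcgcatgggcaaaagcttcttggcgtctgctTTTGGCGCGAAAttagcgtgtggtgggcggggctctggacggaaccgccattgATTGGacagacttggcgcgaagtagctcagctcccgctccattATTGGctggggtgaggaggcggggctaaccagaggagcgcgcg
Prim1: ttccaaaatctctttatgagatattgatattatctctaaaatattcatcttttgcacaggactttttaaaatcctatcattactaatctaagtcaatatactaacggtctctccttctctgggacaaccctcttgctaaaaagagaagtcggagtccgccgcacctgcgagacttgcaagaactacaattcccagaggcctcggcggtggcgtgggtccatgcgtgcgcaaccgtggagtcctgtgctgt
Tyms: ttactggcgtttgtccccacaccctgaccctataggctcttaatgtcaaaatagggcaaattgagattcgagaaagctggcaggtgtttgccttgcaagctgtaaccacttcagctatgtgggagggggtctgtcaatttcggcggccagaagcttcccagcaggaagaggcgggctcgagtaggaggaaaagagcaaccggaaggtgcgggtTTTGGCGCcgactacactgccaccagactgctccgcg
Tk1: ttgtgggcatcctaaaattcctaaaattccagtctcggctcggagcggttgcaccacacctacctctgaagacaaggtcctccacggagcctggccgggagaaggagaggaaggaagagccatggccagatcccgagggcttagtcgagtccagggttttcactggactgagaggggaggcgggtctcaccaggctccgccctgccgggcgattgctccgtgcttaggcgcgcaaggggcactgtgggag
Cks2: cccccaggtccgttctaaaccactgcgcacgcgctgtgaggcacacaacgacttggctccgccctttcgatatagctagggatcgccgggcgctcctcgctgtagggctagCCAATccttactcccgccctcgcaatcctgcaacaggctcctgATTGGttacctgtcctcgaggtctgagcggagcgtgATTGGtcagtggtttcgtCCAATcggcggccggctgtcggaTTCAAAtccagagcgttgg
Cdk1: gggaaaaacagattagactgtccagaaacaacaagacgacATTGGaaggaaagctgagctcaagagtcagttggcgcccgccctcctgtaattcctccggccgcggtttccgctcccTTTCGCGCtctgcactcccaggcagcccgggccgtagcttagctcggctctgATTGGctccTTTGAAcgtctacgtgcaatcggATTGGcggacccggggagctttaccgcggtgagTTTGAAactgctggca
The Mcm6 window, chr13:42404353-42404602 on the minus strand, held 2 overlapping E2F matches starting 139 and 135 bases before the start site, and 2 CCAAT matches. The Tyms window, chr9:120776084-120776333 on the minus strand, held 1 E2F match 37 bases upstream. The Prim1 window, chr7:1031212-1031461 on the plus strand, and the Tk1 window, chr10:103544778-103545027 on the minus strand, held none of these letters. The Cks2 window, chr17:13727520-13727769 on the minus strand, held 1 CHR match, 19 bases upstream, and 4 CCAAT matches. Cdk1, chr20:19265043-19265292 on the plus strand, had an E2F match at 133 bases, CHR matches at 72 and 16 bases and 3 CCAAT matches.

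The promoter table held 34 of the 41 genes. E2F letters occurred in 7 of these 34 windows (20.6%), CHR letters in 7 (20.6%) and CCAAT in 21 (61.8%), against 2.94%, 10.9% and 35.1% of the 11733 genes with a probe set and a promoter. Over all 33469 promoters of the table the shares were 1.73%, 16.2% and 34%. Within the list the letters were divided by phase: E2F letters occurred in 6 of 23 G1/S windows (26.1%) and 1 of 10 G2/M windows (10%), and CHR letters in 1 of 23 G1/S windows (4.35%) and 6 of 10 G2/M windows (60%). By response, E2F letters occurred in 3 of the 17 windows of members called higher at 100 uM and 24 h in the fit without the filter and in 4 of the 17 other members measured. A match describes letters in a window and shows no binding site.

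The arrays had median signals of 362 to 471. Actin 3'/5' ratios, a measure of RNA integrity, were 3.93 to 5.3 on replicates 1 to 3 of 3 uM at 24 h, against 2.34 to 3.43 on the other 27 arrays. Those 3 arrays also stood apart on the second principal component, at -24.8 to -20.3 against -7.87 to 12.6, and the calls that use the 3 uM wells of 24 h are given with and without them. In the 100 uM wells the actin ratio was 2.48 to 3.43, against 2.44 to 3.27 in the DMSO wells. All 7 hepatocyte markers checked, including albumin, lay above the array median on all 30 arrays, and 2 of the 7 were lower at 100 uM at each time, as described with the other cell markers.

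Most of the mitotic members were dim. Of the 39 genes with a probe set, 14 exceeded their array's median on all 30 arrays, 13 passed the filter on 5 to 29 arrays, and 12 were below it. The G1/S genes below the filter were Cdt1, which loads the helicase, Gins1, part of the active helicase, and Pold1, the catalytic subunit of DNA polymerase delta, none of them above the median on any array. In G2/M the 9 genes below it were Ccna2, Cdk1, Top2a, Mki67, Bub1b, Cdc20, Plk1, Aurka and Ube2c, so 9 of 13 G2/M genes were below it, against 3 of 25 G1/S genes. Mki67, the proliferation marker Ki-67, lay between -3.49 and -1.01 on the log2 scale relative to the array median, and Plk1, a mitotic kinase, between -4.25 and -1.79. The proliferating cell nuclear antigen gene Pcna lay between 4.27 and 5.39 on the same scale. No detection calls were used, so a dim probe set is not shown to be silent.

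**Figure D1:**
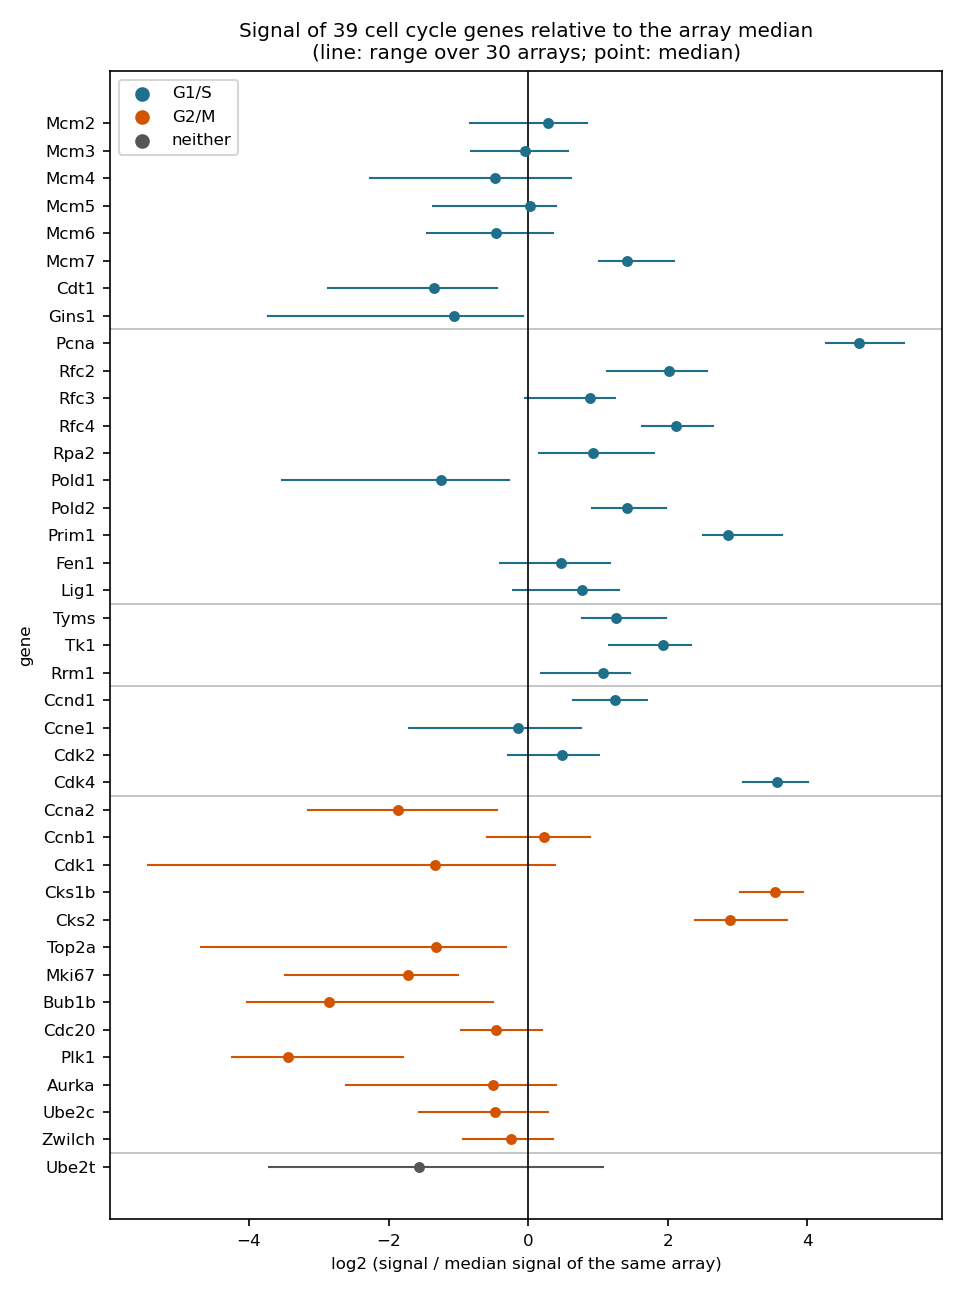
Signal of each of the 39 genes relative to its own array's median (x axis, log2 of signal over median), one row per gene in order of role, with a line from the lowest to the highest of 30 arrays and a point at the median array. Genes of the replication fork lie mostly right of 0, and 9 of the 13 G2/M genes passed the median on fewer than 5 arrays.

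At 100 uM, 9 of 9 fork proteins past the filter were higher than in DMSO at 24 h and 7 of 9 at 48 h, while 4 of 6 and 2 of 6 licensing genes were higher and the thymidine kinase gene Tk1 was lower at both times. Without the filter, 9 of 10 and 7 of 10 fork proteins were higher, and 3 of 8 and 2 of 8 licensing genes. In a linear model over all 30 arrays and 10216 genes (limma, with adjusted p under 0.05 called), 19 of the 27 genes past the filter were higher at 100 uM than in DMSO at 24 h, where 19.9% of all genes were called higher, and 1 was lower, where 15.8% were. At 48 h, 13 of the 27 were higher, against 18.9% of all genes, and 2 were lower, against 14.5%. The median log2 fold change of the 27 was 0.472 at 24 h and 0.442 at 48 h, beside 0.043 and 0.049 over all genes. Of all genes called at 48 h 56.6% were higher, or 44.6% with arrays centred on their medians. In 13 of the 27 at 24 h all 5 arrays at 100 uM lay above all 5 of DMSO (14.5% of all genes) and in 9 at 48 h (15.8%), and Tk1 lay wholly below at each time (11.9% and 12.1%).

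The 27 are not the whole list, and 5 of them owed their place mostly to the 100 uM arrays. Mcm4 exceeded the array median on 6 of 10 arrays at 100 uM, 3 of 10 at 3 uM and 0 of 10 in DMSO, Mcm6 on 8, 1 and 0, Zwilch on 6, 2 and 0, Ube2t on 4, 0 and 1, and Ccne1 on 6, 1 and 2. Their passing the filter thus depended on the 100 uM arrays, which favours genes higher there. Ccne1 passed it and was not called against DMSO. Without the filter, over 39 genes, 20 were higher and 1 lower at 24 h, where 13.6% and 11.1% of all 14217 genes were, and 15 were higher and 2 lower at 48 h, where 13.2% and 10.2% were. The unfiltered median log2 fold changes of the 39 were 0.490 and 0.444. By phase, 15 of 25 G1/S genes and 4 of 13 G2/M genes were higher at 24 h without the filter, and 11 of 25 and 3 of 13 at 48 h. In RNA from whole wells, more cells that express a gene and more RNA per cell cannot be told apart.

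**Figure D2:**
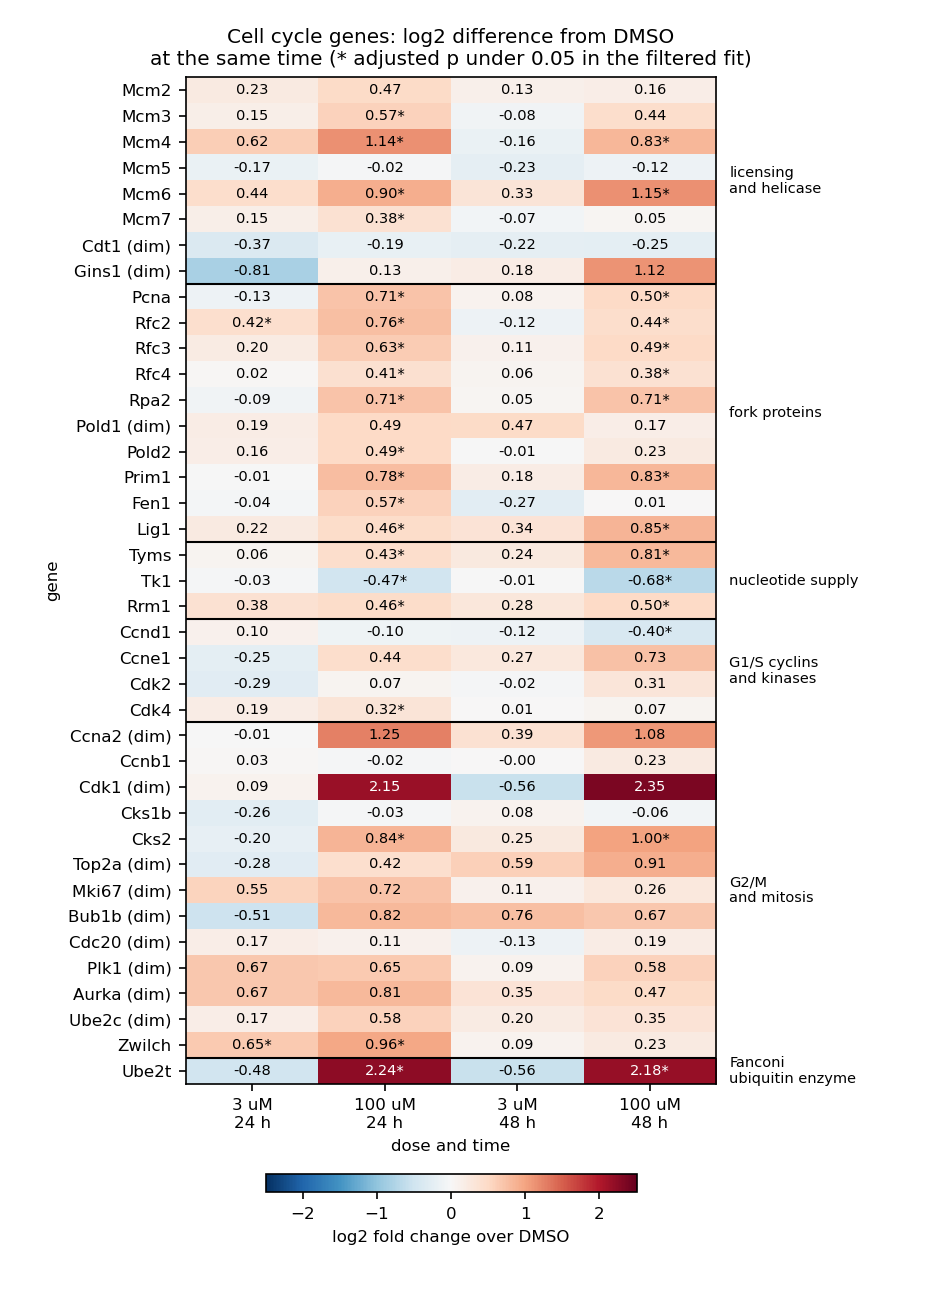
Log2 fold change over DMSO at the same time (colour and printed value) for each of the 39 genes (rows, by role) at 3 uM and 100 uM, 24 h and 48 h (columns); stars mark adjusted p under 0.05 among the 27 genes past the filter, and "dim" marks the 12 below it. The 100 uM columns are mostly above 0 among the fork proteins, where 9 of 9 tested genes are starred at 24 h and 7 of 9 at 48 h, while Tk1 is below 0 in both.

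Of the licensing and helicase genes past the filter, 4 of 6 were higher at 100 uM at 24 h and 2 of 6 at 48 h. Mcm4 and Mcm6 passed the filter mostly through their 100 uM arrays. Without it, 3 of 8 and 2 of 8 genes were higher, beside 13.6% and 13.2% of all genes. Mcm4 and Mcm6, subunits of the ring-shaped replicative helicase, were higher at both times. Mcm4 signals at 24 h were 386, 614, 465, 609 and 456 at 100 uM, against 208, 191, 289, 185 and 274 in DMSO. At 48 h they were 460, 367, 392, 491 and 380 at 100 uM, against 220, 238, 295, 241 and 185 in DMSO. The groups did not overlap at either time, and the log2 fold change was 1.14 ± 0.26 (SE, adjusted p = 0.000796) at 24 h and 0.83 ± 0.26 (adjusted p = 0.0137) at 48 h. At 3 uM, Mcm4 ran from 238 to 456 at 24 h, overlapping both other groups, and from 98.4 to 295 at 48 h, with all 5 wells below those at 100 uM.

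Mcm6 signals at 24 h were 495, 431, 493, 427 and 457 at 100 uM, against 194, 293, 185, 279 and 306 in DMSO. The 48 h signals were 385, 468, 308, 433 and 444 at 100 uM, against 205, 149, 199, 165 and 197 in DMSO. All 5 wells at 100 uM were above all 5 DMSO wells at each time, with a fold of 1.87 at 24 h (log2 0.90 ± 0.24, adjusted p = 0.00347) and 2.22 at 48 h (log2 1.15 ± 0.24, adjusted p = 0.000312). Its 3 uM signals of 190 to 446 at 24 h overlapped those at 100 uM, and the difference from them was not called (log2 0.46, adjusted p = 0.139). At 48 h its 3 uM signals of 144 to 296 were all below those at 100 uM.

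Mcm3, another helicase subunit, gave 24 h signals of 425, 396, 555, 631 and 401 at 100 uM, against 341, 464, 284, 232 and 316 in DMSO. Its 48 h signals were 401, 558, 520, 558 and 472 at 100 uM, against 290, 376, 378, 469 and 338 in DMSO. The groups overlapped at both times, since 2 of 5 wells at 100 uM were above all DMSO wells at 24 h and 4 of 5 at 48 h. The 24 h log2 fold change of 0.57 ± 0.21 was called (adjusted p = 0.0317) but was lost without replicate 3 or 4 of either group (adjusted p = 0.0663 and 0.106 without the DMSO wells, 0.0793 and 0.105 without the 100 uM wells), with arrays centred on their medians (0.0569) and with only the groups compared (0.071). At 48 h the log2 fold change was 0.44 with a 95% interval of 0.02 to 0.87 and an adjusted p of 0.102.

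Mcm7 was called higher at 24 h only (1.30-fold, adjusted p = 0.0341), with a log2 fold change of 0.05 at 48 h. Its call was lost without 100 uM replicate 1 or 5 (adjusted p = 0.146 and 0.0633) and without DMSO replicate 2 or 3 (0.112 and 0.093), as well as with no filter (0.0507) and with only the groups compared (0.0514). Mcm2 and Mcm5 did not pass the test, with 95% intervals at 24 h of -0.04 to 0.99 and -0.53 to 0.48. On the same arrays the log2 fold changes of the helicase subunits ran from -0.02 for Mcm5 to 1.14 for Mcm4 at 24 h. Among the dim genes of this group, Gins1 had log2 fold changes of 0.13 at 24 h and 1.12 at 48 h (adjusted p = 0.0904) and Cdt1 of -0.19 and -0.25, none called.

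The 9 fork proteins past the filter had median log2 fold changes of 0.633 at 24 h and 0.491 at 48 h. Pcna, the sliding clamp that holds polymerases on DNA, had 24 h signals of 14350, 15290, 16113, 13374 and 14595 at 100 uM, against 8735, 9262, 9306, 8898 and 8808 in DMSO. At 48 h its signals were 14323, 15748, 15083, 14635 and 14584 at 100 uM, against 9785, 10084, 10998, 10781 and 10812 in DMSO. Every well at 100 uM was above every DMSO well, by 1.64-fold at 24 h (log2 0.71 ± 0.062, adjusted p = 3.95e-11) and 1.42-fold at 48 h (log2 0.50 ± 0.062, adjusted p = 6.23e-08). At 3 uM the Pcna signals were 7515 to 9560 at 24 h and 9732 to 11670 at 48 h, all below those at 100 uM.

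Rfc2, Rfc3 and Rfc4 encode subunits of replication factor C, the loader that places the clamp on DNA. Rfc2 signals at 24 h were 1946, 2253, 2284, 2325 and 2018 at 100 uM, against 1100, 1528, 1332, 1278 and 1197 in DMSO. The later wells, at 48 h, gave 1745, 1978, 1659, 2065 and 1783 at 100 uM, against 1482, 1428, 1768, 1175 and 1036 in DMSO. The groups were separate at 24 h (log2 0.76 ± 0.12, adjusted p = 5.32e-06), and at 48 h 3 of 5 wells at 100 uM were above the DMSO wells (log2 0.44 ± 0.12, adjusted p = 0.00409). Rfc3 signals at 24 h were 972, 841, 903, 868 and 948 at 100 uM, against 391, 622, 592, 617 and 764 in DMSO. Signals at 48 h were 933, 914, 940, 924 and 960 at 100 uM, against 684, 616, 574, 642 and 833 in DMSO. These groups did not overlap at either time, with 1.55-fold higher signal at 24 h (adjusted p = 0.000155) and 1.41-fold at 48 h (adjusted p = 0.00261). Rfc4 rose too, 1.33-fold at 24 h (adjusted p = 0.00234) and 1.30-fold at 48 h (adjusted p = 0.00563).

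Rpa2, a subunit of the protein that coats single-stranded DNA, had 24 h signals of 1226, 1393, 1182, 1039 and 1075 at 100 uM, against 503, 714, 843, 949 and 673 in DMSO. At 48 h they were 890, 1059, 1179, 930 and 1040 at 100 uM, against 535, 647, 825, 451 and 722 in DMSO. The wells at 100 uM were all higher at both times, with the same log2 fold change of 0.71 ± 0.16 at 24 h (adjusted p = 0.000461) and at 48 h (adjusted p = 0.000503). Prim1, the primase subunit that starts new strands, gave the smallest adjusted p of the fork group at both times. Its 24 h signals were 4695, 3864, 4781, 4730 and 4347 at 100 uM, against 2334, 2633, 2706, 2767 and 2576 in DMSO. Its 48 h signals were 4488, 5022, 4630, 4734 and 4152 at 100 uM, against 2667, 2588, 2832, 2454 and 2414 in DMSO. The groups were far apart at both times, 1.72-fold at 24 h (log2 0.78 ± 0.066, adjusted p = 2.11e-11) and 1.78-fold at 48 h (log2 0.83 ± 0.066, adjusted p = 4.7e-12).

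Fen1 and Lig1 join the short fragments of the lagging strand, Fen1 by trimming their ends and Lig1 by sealing them. Fen1 signals at 24 h were 790, 787, 867, 598 and 586 at 100 uM, against 419, 590, 522, 311 and 645 in DMSO. The 48 h signals were 511, 477, 668, 707 and 557 at 100 uM, against 683, 599, 418, 583 and 615 in DMSO. At 24 h 3 of 5 wells at 100 uM exceeded the DMSO wells (log2 0.57 ± 0.18, adjusted p = 0.0134, and 0.0705 without DMSO replicate 4), and at 48 h the log2 fold change was 0.01 with a 95% interval of -0.36 to 0.39. Lig1 was called at both times. Its 24 h signals were 823, 969, 780, 673 and 886 at 100 uM, against 526, 505, 625, 647 and 690 in DMSO. Its 48 h signals were 968, 991, 974, 863 and 941 at 100 uM, against 571, 595, 349, 628 and 530 in DMSO. At 24 h 4 of 5 wells at 100 uM were above the DMSO wells (log2 0.46 ± 0.16, adjusted p = 0.02), and at 48 h all were (log2 0.85 ± 0.16, adjusted p = 5.52e-05).

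The 24 h call of Lig1 was lost without DMSO replicate 1 (adjusted p = 0.0541), DMSO replicate 2 (0.0609) or 100 uM replicate 2 (0.0623), and a second, dimmer Lig1 probe set gave log2 fold changes of -0.00 at 24 h and 0.40 at 48 h, neither called. Averaging the Lig1 probe sets gave a 24 h log2 fold change of 0.23 (adjusted p = 0.4). Pold2, the accessory subunit of polymerase delta, was called at 24 h (1.40-fold, adjusted p = 0.000746) and had a log2 fold change of 0.23 at 48 h (adjusted p = 0.108). The dim Pold1 had log2 fold changes of 0.49 and 0.17, not called.

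**Figure D3:**
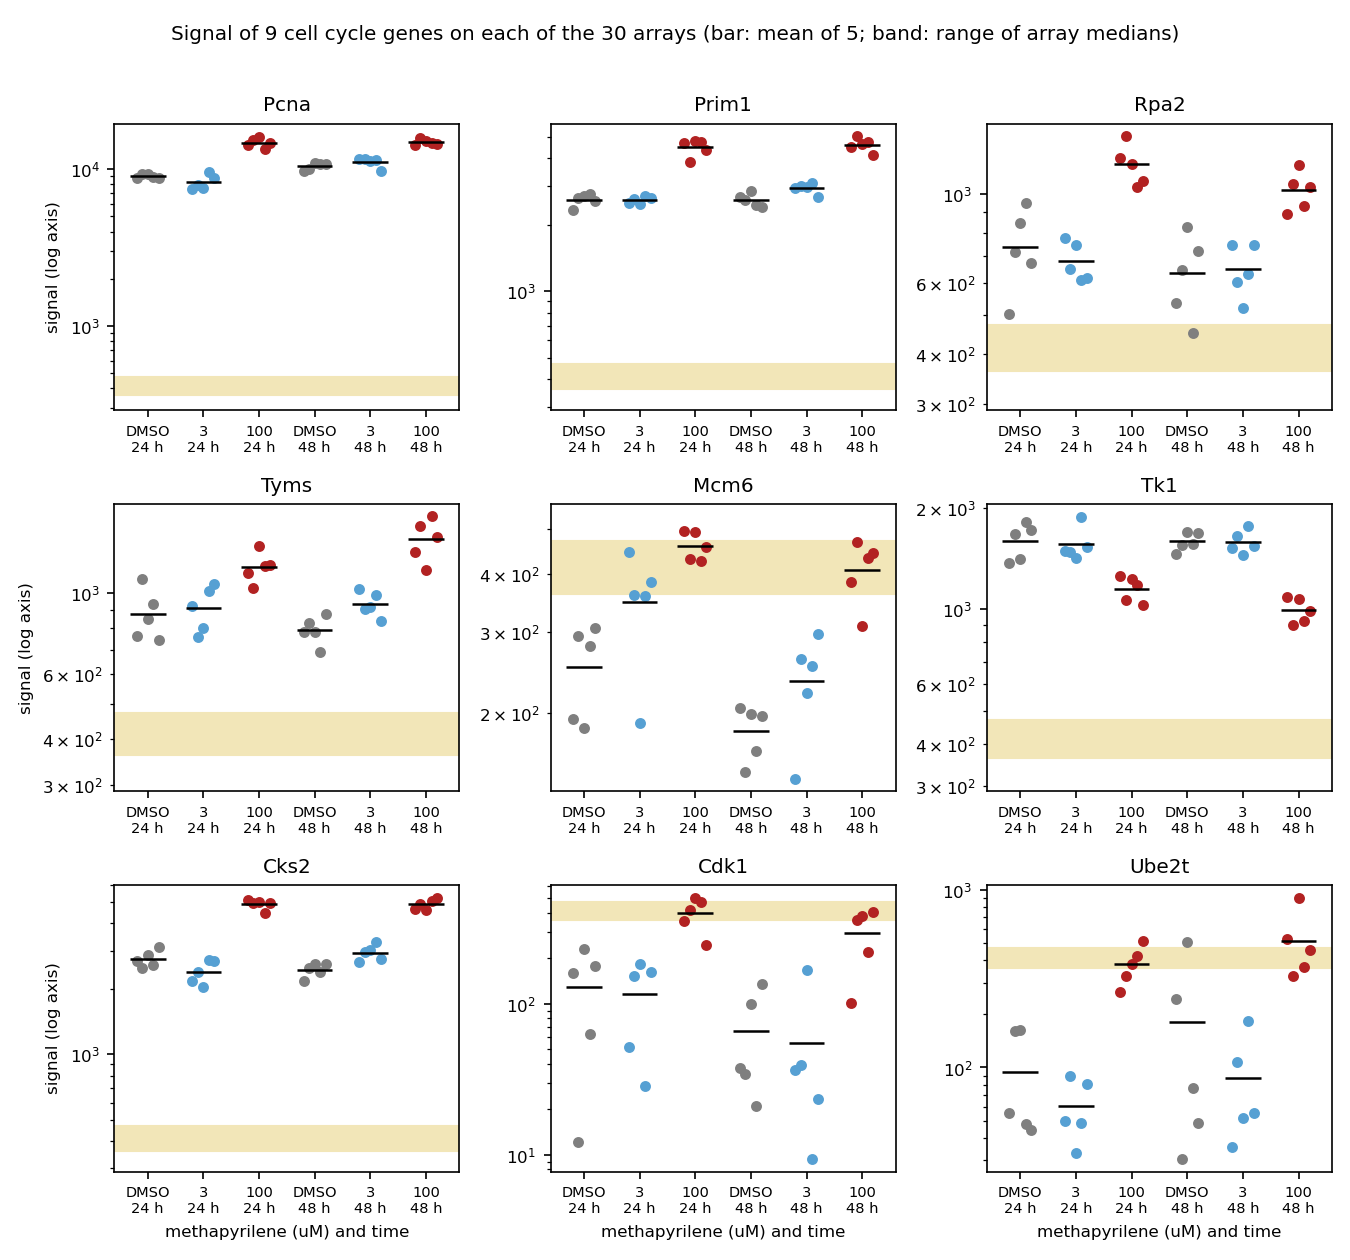
Deposited signal of each well (y axis, intensity on a log axis with its own scale in each panel) for 9 genes, by dose from DMSO through 3 uM to 100 uM at 24 h and at 48 h (x axis); points are wells, bars are group means of 5 wells, and the band is the range of the array medians. The 100 uM wells of Pcna, Prim1, Cks2 and Mcm6 lie above the DMSO wells at both times, those of Tk1 lie below, and those of Ube2t spread widely.

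The 3 nucleotide supply genes past the filter divided, with Tyms and Rrm1 higher and Tk1 lower at both times. Tyms makes thymidine monophosphate from deoxyuridine monophosphate. Its 24 h signals were 1128, 1030, 1342, 1178 and 1186 at 100 uM, against 764, 1086, 848, 933 and 744 in DMSO. Its 48 h signals were 1291, 1518, 1155, 1611 and 1413 at 100 uM, against 780, 829, 784, 692 and 877 in DMSO. At 24 h 4 of 5 wells at 100 uM were above the DMSO wells and at 48 h all 5 were, with log2 fold changes of 0.43 ± 0.12 (adjusted p = 0.00325) and 0.81 ± 0.12 (adjusted p = 8.45e-07).

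Tk1, the cytosolic kinase that salvages thymidine, went in the opposite direction. At 24 h its signals were 1252, 1063, 1234, 1182 and 1033 at 100 uM, against 1372, 1671, 1414, 1811 and 1717 in DMSO. The later wells, at 48 h, gave 1086, 900, 1072, 923 and 987 at 100 uM, against 1459, 1547, 1696, 1566 and 1688 in DMSO. Every well at 100 uM was below every DMSO well at both times, with log2 fold changes of -0.47 ± 0.093 (adjusted p = 0.000139) and -0.68 ± 0.093 (adjusted p = 4.05e-07). A second Tk1 probe set, above the median on all 30 arrays, gave -0.87 at 24 h and -0.70 at 48 h (adjusted p = 0.000116 and 0.00161 in a fit of single probe sets).

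Rrm1, the large subunit of ribonucleotide reductase, which makes deoxyribonucleotides, had 24 h signals of 863, 785, 1044, 1147 and 908 at 100 uM, against 848, 609, 623, 731 and 643 in DMSO. Signals at 48 h were 941, 880, 946, 906 and 730 at 100 uM, against 635, 455, 530, 743 and 803 in DMSO. In 4 of 5 wells at 100 uM the signal was above all DMSO wells at each time, and the log2 fold change was 0.46 ± 0.15 at 24 h (adjusted p = 0.0138) and 0.50 ± 0.15 at 48 h (adjusted p = 0.00754). Without 100 uM replicate 4 the 24 h call had an adjusted p of 0.0522.

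Of 4 cyclins and kinases of the G1/S switch, 1 was called higher at 24 h and 1 lower at 48 h, beside 19.9% and 14.5% of all genes. Cdk4, the kinase partner of D cyclins, was higher at 24 h (1.25-fold, adjusted p = 0.0171, with 0.0703 without 100 uM replicate 4 and 0.054 with arrays centred on their medians) and had a log2 fold change of 0.07 at 48 h. Ccnd1, which encodes cyclin D1, was lower at 48 h (0.760-fold, log2 -0.40 ± 0.12, adjusted p = 0.00967). Without 100 uM replicate 2 its log2 fold change was -0.30 (adjusted p = 0.0513), and a second Ccnd1 probe set gave -0.63 (adjusted p = 0.0318). Ccne1, the cyclin E1 gene, had log2 fold changes of 0.44 at 24 h and 0.73 at 48 h with wide 95% intervals of -0.21 to 1.09 and 0.08 to 1.38, and Cdk2, its kinase partner, of 0.07 and 0.31. Neither was called.

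Among the G2/M genes, Cks2 and Zwilch were called higher at 24 h and Cks2 alone at 48 h, of 4 past the filter. Of all genes, 19.9% were called higher at 24 h and 18.9% at 48 h. Zwilch passed the filter mostly through its 100 uM arrays. Without the filter, 4 of 13 and 3 of 13 G2/M genes were higher, beside 13.6% and 13.2% of all genes. Cks2, a small protein that binds cyclin-dependent kinases, had 24 h signals of 5138, 4975, 5040, 4483 and 4946 at 100 uM, against 2690, 2505, 2855, 2578 and 3107 in DMSO. Its 48 h signals were 4678, 4890, 4589, 5072 and 5249 at 100 uM, against 2174, 2485, 2616, 2395 and 2605 in DMSO. The groups were separate at both times, 1.79-fold at 24 h (log2 0.84 ± 0.078, adjusted p = 1.37e-10) and 2.00-fold at 48 h (log2 1.00 ± 0.078, adjusted p = 2.52e-12). Its paralog Cks1b did not pass the test, with 95% intervals of -0.24 to 0.18 and -0.27 to 0.15 on the log2 scale.

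Zwilch, part of the kinetochore complex of the spindle checkpoint, had 24 h signals of 447, 511, 434, 435 and 336 at 100 uM, against 219, 221, 203, 248 and 216 in DMSO. At 48 h they were 402, 458, 386, 282 and 392 at 100 uM, against 305, 281, 398, 357 and 296 in DMSO. The groups were separate at 24 h (log2 0.96 ± 0.19, adjusted p = 0.000141) and overlapped at 48 h (log2 0.23, adjusted p = 0.4). Ccnb1, the mitotic cyclin B1 gene, had log2 fold changes of -0.02 and 0.23 with 95% intervals of -0.56 to 0.52 and -0.31 to 0.78. A second Ccnb1 probe set, above the median on only 2 of 30 arrays, gave 1.38 ± 0.68 at 24 h and 1.69 ± 0.68 at 48 h. Neither was called in a fit of single probe sets (adjusted p = 0.176 and 0.084).

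Of the 9 dim G2/M genes, Cdk1 and Ccna2 were called higher at both times in the fit without the filter. Of all genes in that fit, 13.6% were called higher at 24 h and 13.2% at 48 h, so 2 of 9 was not far from these shares. Cdk1, the kinase that starts mitosis, had 24 h signals of 355, 419, 502, 474 and 244 at 100 uM, against 160, 12.1, 232, 63.6 and 177 in DMSO. The 48 h signals were 102, 358, 382, 221 and 405 at 100 uM, against 37.4, 34.2, 99.2, 21.2 and 136 in DMSO. The groups were separate at 24 h, and 4 of 5 wells at 100 uM were above the DMSO wells at 48 h, with log2 fold changes of 2.15 ± 0.71 (adjusted p = 0.024) and 2.35 ± 0.71 (adjusted p = 0.0137). The 24 h call was lost without DMSO replicate 2 (log2 1.44, adjusted p = 0.128), 100 uM replicate 3 (0.0515) or DMSO replicate 4 (0.0524), and the 48 h call without DMSO replicate 4 (0.05).

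Ccna2, cyclin A2, which acts in S phase and G2, had 24 h signals of 212, 293, 161, 135 and 250 at 100 uM, against 107, 81.7, 61.9, 52.5 and 156 in DMSO. The later wells, at 48 h, gave 108, 100, 287, 232 and 232 at 100 uM, against 86.2, 84.1, 60.8, 114 and 77.9 in DMSO. In 4 of 5 wells at 24 h and 3 of 5 at 48 h the 100 uM signal was above the DMSO wells, with log2 fold changes of 1.25 (adjusted p = 0.0187) and 1.08 (adjusted p = 0.0472). The 24 h call was lost without 100 uM replicate 2 or without DMSO replicate 3 or 4 (adjusted p = 0.0568, 0.0502 and 0.0619). At 48 h it was lost without 100 uM replicate 3, 4 or 5 (0.136, 0.11 and 0.109) or DMSO replicate 1, 2, 3 or 5 (0.0691, 0.0713, 0.11 and 0.0811). The other 7 dim G2/M genes, Top2a, Mki67, Bub1b, Cdc20, Plk1, Aurka and Ube2c, were not called, with log2 fold changes from 0.11 (Cdc20) to 0.82 (Bub1b) at 24 h, and from 0.19 (Cdc20) to 0.91 (Top2a) at 48 h. The 5 probe sets of Cdc20 ran from -0.84 to 1.25 at 24 h and from -0.84 to 0.67 at 48 h. A dimmer one exceeded the median on 5 arrays, the chosen one on 1. A second Top2a probe set gave 0.95 and 0.29. None of these was called in a fit of single probe sets.

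Ube2t had the largest log2 fold change and the widest error of the 27. Its signal exceeded the array median on 4 of 10 arrays at 100 uM, 0 of 10 at 3 uM and 1 of 10 in DMSO. The size of its fold change therefore rests on dim signals, log2 transformed with no pseudocount. Its 24 h signals were 265, 329, 383, 422 and 514 at 100 uM, against 55.4, 160, 162, 48.1 and 44.5 in DMSO. Its 48 h signals were 531, 328, 897, 369 and 460 at 100 uM, against 243, 30.7, 507, 76.6 and 48.6 in DMSO. The groups were separate at 24 h, while 2 of 5 wells at 100 uM exceeded the DMSO wells at 48 h, where the signal of 1 DMSO well lay within the range of the 100 uM wells. The log2 fold change was 2.24 ± 0.62 at 24 h (adjusted p = 0.00456) and 2.18 ± 0.62 at 48 h (adjusted p = 0.0062), with 95% intervals of 0.98 to 3.51 and 0.91 to 3.44.

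At 3 uM, 2 of 27 were higher than in DMSO at 24 h, where 3.00% of all genes were called higher, and 0 were lower, where 1.22% were. Higher genes made up 71% of these calls over all genes, or 90.7% with arrays centred on their medians. At an unadjusted p under 0.05, 4 were higher and 3 lower. The log2 fold changes of the 27 ran from -0.48 to 0.65. Rfc2 had 3 uM signals of 1747, 1631, 1549, 2025 and 1660 at 24 h, above all 5 DMSO wells, as for 1.36% of all genes, and a log2 fold change of 0.42 (adjusted p = 0.0388). Zwilch had 3 uM signals of 326, 300, 303, 461 and 371, also above the DMSO wells, and a log2 fold change of 0.65 (adjusted p = 0.0445).

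Neither call held in every fit. With only replicates 4 and 5 of 3 uM, the arrays without the high actin ratio, Rfc2 had a log2 fold change of 0.52 (adjusted p = 0.261) and Zwilch of 0.90 (adjusted p = 0.211), so the differences were as large and not called. Leaving out single wells ended the Rfc2 call without 3 uM replicate 1, 2 or 3 or DMSO replicate 1, 4 or 5 (adjusted p 0.062 to 0.0992). It ended the Zwilch call without 3 uM replicate 1, 2, 3 or 4 or DMSO replicate 1, 2, 3 or 5 (adjusted p 0.0589 to 0.103). At 48 h, limma called 0 of 27 in either direction at 3 uM, where 0.0196% of all genes were called each way, and 4 were higher and 0 lower at an unadjusted p under 0.05.

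The higher dose was also set against the lower one, with the same 100 uM wells as in the comparison with DMSO. At 24 h, 11 of 27 were higher than at 3 uM and 1 lower, against 19.8% and 19.1% of all genes, and at 48 h 12 were higher and 1 lower, against 16.2% and 12.6%. Of all genes called at 24 h 50.9% were higher, or 34.5% with arrays centred on their medians. The lower gene was Tk1 at each time (log2 -0.43 and -0.68). Pcna had log2 fold changes of 0.84 at 24 h and 0.42 at 48 h over 3 uM, Prim1 of 0.79 and 0.65, and Cks2 of 1.04 and 0.74, all called. The fork proteins accounted for 8 of the 11 genes at 24 h, and 0 of 6 licensing genes were called then, also at an unadjusted p under 0.05.

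Which genes were called at 24 h changed without the 3 uM arrays of high actin ratio. With only 3 uM replicates 4 and 5, 11 of 27 were higher at 100 uM and 1 lower, against 14.6% and 12.4% of all genes. Of the 11, 7 were shared with the fit of all wells: Cks2, Pcna, Pold2, Prim1, Rfc3, Rpa2 and Ube2t. Fen1, Rfc2, Rfc4 and Tyms were no longer called, and Ccne1, Mcm2, Mcm3 and Mcm4 were, so that 5 of 9 fork proteins and 3 of 6 licensing genes were higher. The log2 fold changes at 24 h were then 0.68 for Pcna, 0.74 for Prim1, 0.87 for Cks2 and -0.56 for Tk1, all called.

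The times were also compared within a dose. In DMSO wells, 2 of 27 were higher at 48 h than at 24 h (2.57% of all genes) and 0 lower (1.91%): Pcna by 0.22 on the log2 scale (adjusted p = 0.034) and Cdk4 by 0.43 (adjusted p = 0.0123). The Pcna call was lost with arrays centred on their medians (adjusted p = 0.295), with eBayes without trend (0.052) and with the actin covariate (0.072). It was also lost without DMSO replicate 3, 4 or 5 of 48 h (adjusted p = 0.0903, 0.079 and 0.0848) or replicate 1, 4 or 5 of 24 h (0.0719, 0.0656 and 0.0797), and the Cdk4 call without replicate 2 or 3 of 48 h (0.0533 and 0.0512). In 100 uM wells, limma called 0 of 27 between 48 h and 24 h (5.05% of all genes higher, 4.46% lower), and at an unadjusted p under 0.05 1 was higher and 2 lower.

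The 6 genes called higher at 24 h and not at 48 h, Mcm3, Mcm7, Pold2, Fen1, Cdk4 and Zwilch, were not shown to respond differently at the 2 times. A test of the 100 uM effect at 48 h minus that at 24 h called 0 of 27 in either direction (0.617% and 1.04% of all genes). At an unadjusted p under 0.05, the effect was larger at 48 h in Tyms (log2 difference 0.38) and smaller in Pcna (-0.21), Fen1 (-0.56) and Zwilch (-0.73, adjusted p = 0.232). Of the genes called higher, 13 were called at both times: Mcm4, Mcm6, Pcna, Rfc2, Rfc3, Rfc4, Rpa2, Prim1, Lig1, Tyms, Rrm1, Cks2 and Ube2t.

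**Figure D4:**
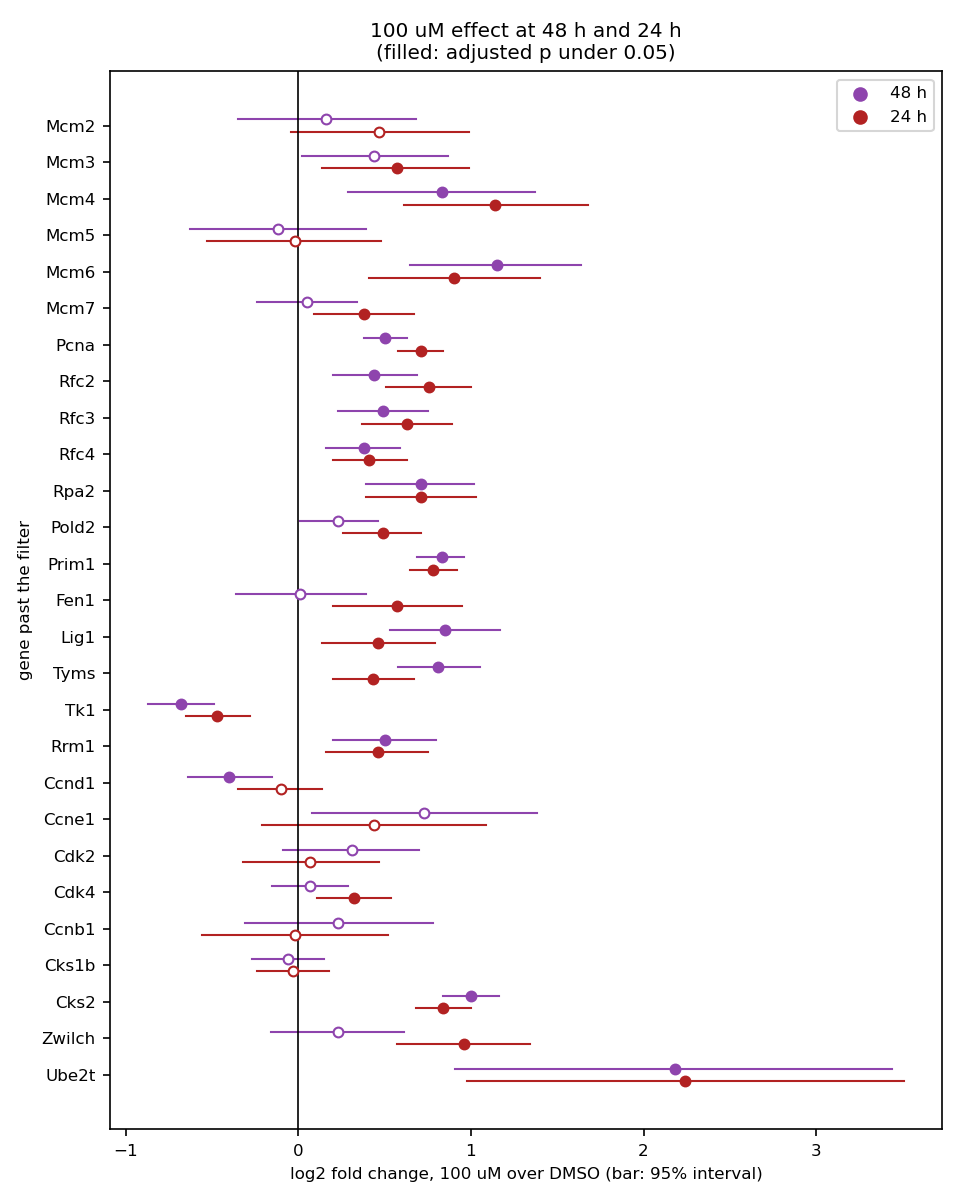
Log2 fold change of 100 uM over DMSO (x axis) for the 27 genes past the filter (rows, by role) at 48 h and 24 h, with 95% intervals as lines. The intervals of the 2 times overlap in every row, Tk1 lies left of 0 at both, and Ube2t has the widest interval.

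Regulators upstream of these genes were examined from further lists, chosen like the members with earlier results of these data known. All counts and medians of these lists cover genes past the filter only, so their dim genes are not described. Past it were 15 of 20 E2F and Rb genes, 9 of 17 checkpoint genes and 4 of 8 kinase inhibitors. So were 30 of 45 replication genes, 30 of 48 mitotic genes, 11 of 14 cyclins and kinases and 5 of 14 Fanconi genes. Of 15 E2F, Rb and related genes past the filter, 4 were higher and 1 lower at each time at 100 uM, counts not far from the share of all genes (19.9% higher and 15.8% lower at 24 h, 18.9% and 14.5% at 48 h). E2f5, a member of the E2F family usually found with repressor partners, was 2.40-fold higher at 24 h and 1.53-fold at 48 h. Mybl2, an activator of G2/M genes, was 2.22-fold higher at 24 h and had a log2 fold change of 0.54 at 48 h, not called. Lin37, part of the DREAM complex that represses cell cycle genes, was higher at both times (log2 0.53 and 0.76), and Rbl2, the pocket protein p130 of the same complex, was lower at both (-0.51 and -0.70).

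Of 9 checkpoint and p53 genes past the filter, 5 were higher at 24 h and 6 at 48 h, and 0 were lower. Over all genes 19.9% were higher and 15.8% lower at 24 h, and 18.9% and 14.5% at 48 h. Mdm2, which targets p53 for degradation and is itself a p53 target, was 2.43-fold higher at 24 h and 2.52-fold at 48 h. Sfn, the 14-3-3 sigma gene that holds Cdk1 complexes in the cytoplasm, was 3.02-fold and 2.42-fold higher. Ccng1 and Gadd45a, also p53 targets, had log2 fold changes of 0.71 and 0.49 at 24 h and of 0.48 and 0.36 at 48 h, all called. Of 4 inhibitors of cyclin-dependent kinases, 1 was called at 100 uM, beside the same shares of all genes. It was Cdkn1b (p27), lower at 24 h (log2 -0.23, adjusted p = 0.0248), with -0.02 at 48 h. That call was lost without replicate 1 or 2 of either group (adjusted p 0.0563 to 0.0972). At 3 uM and 24 h Cdkn1b had a log2 fold change of -0.30 (adjusted p = 0.0315). With 3 uM replicates 4 and 5 alone it was -0.12 (adjusted p = 0.749), and the call was also lost with the actin covariate (0.722), only the groups compared (0.269), centred arrays (0.0907), eBayes without trend (0.0543), or without 3 uM replicate 1, 2 or 3 or DMSO replicate 1 or 2 (0.0777 to 0.148).

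Of 30 other DNA replication genes past the filter, 11 were higher and 4 lower at 24 h. At 48 h 7 were higher and 4 lower, where the counts were close to the shares of all genes just given. Gmnn, the geminin gene whose product blocks origin licensing, had log2 fold changes of 0.98 and 0.99, and Gins4, a helicase cofactor, of 0.62 and 0.54. Pold4, a small polymerase delta subunit, was lower (-0.32 and -0.37), and Rnaseh2a, which removes RNA from DNA, was lower at 24 h (-0.54) with -0.11 at 48 h, not called. Of 30 other mitotic genes past the filter, 15 were higher and 1 lower at 24 h, and 11 higher and 1 lower at 48 h, beside the same shares. Kif22, a chromosome motor, was higher (1.03 and 0.97), as were the kinetochore gene Zwint (0.46 and 0.43) and Ube2s (0.58 and 0.47, that at 48 h with an adjusted p of 0.077 for the mean of its probe sets), a ubiquitin enzyme of the anaphase-promoting complex, while Spc24, a kinetochore subunit, was lower (-1.17 and -0.77). Of 11 other cyclins and kinases 5 were higher at each time and 0 lower, beside the same shares. They included Ccnh, Mnat1 and Cdk7, the 3 subunits of the kinase that activates other cyclin-dependent kinases (log2 0.44, 0.41 and 0.29 at 24 h, that of Cdk7 not called with centred arrays, adjusted p = 0.051), and Cul1, a ubiquitin ligase scaffold (0.26). Of 5 other Fanconi genes limma called 0 at either time, with log2 fold changes of 0.13 and 0.00 at 24 h for Fancl and Fancc, the brightest. The median log2 fold change at 24 h was 0.435 over the mitotic list, 0.491 over the checkpoint list, 0.207 over the replication list and 0.069 over the E2F list, beside 0.043 over all genes.

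Markers of liver cell types were read from the same arrays. Of the 7 hepatocyte markers, 2 were lower and 0 higher at each time in the 100 uM wells. Over all genes 15.8% were lower at 24 h and 14.5% at 48 h. Tat, a liver enzyme of tyrosine breakdown, was lower at both times (log2 -0.66 and -0.41), Hnf4a, a transcription factor of hepatocytes, at 24 h (-0.37, with -0.03 at 48 h) and Cyp2c11, a cytochrome P450 of male rat liver, at 48 h (-1.11, with -0.20 at 24 h). Albumin had log2 fold changes of 0.05 and -0.15, not called. The summed signal of the 7 was 286021 to 376874 at 100 uM, against 297405 to 363321 in DMSO at 24 h, and 253878 to 297857 against 284068 to 333293 at 48 h.

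Other cell types were checked in the same way. Of 9 Kupffer cell and leukocyte markers with a probe set, 4 (Cd163, Ptprc, Adgre1 and Itgam) exceeded the median on no array, and the summed signal of the 9 was 16127 to 17749 at 100 uM, against 19219 to 23073 in DMSO at 24 h, and 13345 to 16702 against 18644 to 21701 at 48 h. Most of this sum came from Cd14 and Lyz2, which averaged 9112 and 7343 over all arrays. Cd68 averaged 1208, Clec4f 458 and Csf1r 425, so the sum says little of these. Cd14 and Lyz2 were lower (log2 -0.68 and -0.29 at 24 h, -1.05 and -0.21 at 48 h, the 48 h call of Lyz2 lost under 10 of 21 alternatives) and Cd68, a lysosomal protein of macrophages, was higher (0.86 and 1.65). Of 8 stellate cell and fibroblast markers, with Pdgfrb, Lrat and Dcn above the median on no array, the sum was 3255 to 3863 at 100 uM, against 3004 to 3474 in DMSO at 24 h, and 3051 to 4194 against 2922 to 3414 at 48 h. Among the 4 of them past the filter, 0 were called at 24 h, and 1 was called higher and 0 lower at 48 h, beside 18.9% and 14.5% of all genes. The sum over 6 endothelial markers, with Pecam1, Tek and Vwf on none, was 1006 to 1706 at 100 uM, against 909 to 1522 in DMSO at 24 h, and 1214 to 1547 against 989 to 1227 at 48 h. Over 5 bile duct markers, with Krt7, Spp1 and Cftr on none, it was 11090 to 11967 at 100 uM, against 9925 to 11037 in DMSO at 24 h, and 11063 to 12023 against 12600 to 13594 at 48 h, nearly all of it from Epcam, which averaged 11002 over all arrays. Of the 2 past the filter, Epcam and the dim Krt19, Epcam was called higher at 24 h and both were called lower at 48 h. Their median log2 fold change at 48 h was -0.823. Epcam itself averaged 11150 at 100 uM, against 12408 in DMSO, a much smaller fall than that median. The Epcam calls were lost under 8 of 21 alternatives at each time. The part of any of these cells in the values of the cell cycle genes was not tested.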

How the data were processed

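RNA of 30 wells was measured on Affymetrix arrays. The deposited table holds linear intensity values for 31099 probe sets, made with MAS5 per the submitters' processing notes (version not given); the 2% trimmed mean of each array is 1501, so the arrays were scaled to a common level. The raw scans were not used here. GEO's platform annotation paired 20826 probe sets with 1 gene, 436 with several and 9780 with none. Probe sets with several genes or none were left out, as were 57 control probe sets, and 1 probe set per gene was kept, the one with the highest mean over all arrays.

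Signals were log2 transformed with no pseudocount and fitted in R 4.3.3 with limma 3.58.1: one mean for each of 6 groups, eBayes with trend, two-sided tests, Benjamini-Hochberg adjustment over the 10216 genes past the filter in each comparison. Errors of log2 fold changes are standard errors with 24 residual degrees of freedom before moderation, and folds are 2 to the power of the log2 fold change. Tables and figures were made with Python 3.11.15, pandas 2.3.3 and matplotlib 3.10.9. The scripts were tested on simulated data.

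The members and the further lists were chosen with earlier results of these data known. Values of every array are given for members called at 100 uM with a log2 fold change of at least 0.5 in size at either time, and of the further lists up to 4 called genes with the smallest adjusted p, or failing these the 2 brightest. Cdk1 and Ccna2, below the filter, and the hepatocyte markers Cyp2c11 and albumin were added after their values were seen. Replicate numbers follow the order of deposit and pair no wells.

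The alternatives were quantile normalization, centring arrays on their medians, no filter, a stricter filter (at least 15 arrays above the median), the mean of a gene's probe sets, a pseudocount of 50, eBayes without trend, fitting only the groups compared, array weights, runs of 6 consecutive arrays as a replicate block, the actin ratio as a covariate, 3 uM 24 h replicates 4 and 5 alone, and leaving out each array. The number of arrays limits the precision.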

Additional observations from a re-analysis of the deposited data

Results flagged for a closer look

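For the 16 members given array by array, the lowest and highest well of each of 96 groups of 5 were compared with the other wells by Dixon's ratio (the gap to the nearest well over the range of the group) at its 95% critical value, and chance flags about 1 in 20 groups. The Pcna signal of 3 uM 48 h replicate 5, 9732, was far below the other 4 wells at 11281 to 11670 (ratio 0.799). The Tk1 signal of 3 uM 24 h replicate 4, 1885, was far above the other 4 wells at 1424 to 1527 (ratio 0.777).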

How the results depend on the processing

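No called difference of a member changed sign under any alternative run. Of the calls at 100 uM against DMSO, 14 of 20 at 24 h and 14 of 15 at 48 h held under every setting run and without each of 10 arrays. These were 11 settings, or 10 for 4 of the 14 at 24 h (Mcm4, Mcm6, Zwilch and Ube2t) and 3 of the 14 at 48 h (Mcm4, Mcm6 and Ube2t), which the stricter filter dropped. The exceptions were Mcm3, Mcm7, Fen1, Lig1, Rrm1 and Cdk4 at 24 h and Ccnd1 at 48 h. Without single arrays the count lower at 48 h was 1 to 2 (1 without 100 uM replicate 2). The 2 members higher at 3 uM and 24 h became 1 with quantile normalization, the stricter filter, eBayes without trend or the replicate block, 0 with centred arrays, no filter, only the groups compared, the actin covariate or replicates 4 and 5 alone, 4 with array weights, and 0 to 2 without single arrays. The 0 lower there became 3 with array weights and 0 to 3 without single arrays (3 without 3 uM replicate 4). The 1 lower at 100 uM than at 3 uM at 48 h became 2 with the mean of probe sets or array weights. The 2 higher in DMSO at 48 h than at 24 h became 1 with centred arrays or the actin covariate, stayed at 2 with eBayes without trend (Cdk4 and Zwilch, not Pcna), and became 0 to 2 without single arrays (0 without 48 h replicate 3). Lower members became 1 at 100 uM between times with array weights and 1 in the difference of effects with eBayes without trend; the cause of these changes was not tested. Over all genes, centring moved the count higher at 100 uM and 48 h to 1246, against 1932, and moved those at 24 h against 3 uM to 1178, against 2021. At 3 uM and 24 h the 306 higher genes became 1597 with array weights and 0 with the actin covariate, with replicates 4 and 5 alone or with only the groups compared. With centred arrays the differences of effects became 21 higher and 37 lower, against 63 and 106. The replicate block ended no call at 100 uM against DMSO, and that of Zwilch at 3 uM and 24 h (adjusted p = 0.0572). For Cdk1 and Ccna2, the fits without the filter that left out arrays, added the pseudocount of 50 or used quantile normalization were chosen after seeing the data. With 5 wells a group, dim probe sets have wide intervals, and 9 of the 13 G2/M genes were below the filter. The bright G2/M genes Cks2 and Cks1b had narrow intervals (SE 0.078 and 0.10 for 100 uM against DMSO).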
